A study of Mus musculus with 8 samples.

Results

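The comparison described here is the interaction between genotype and LPS in bone marrow-derived dendritic cells (BMDCs). For each gene it asks whether the difference between 3xGrk-/- and wild type (WT) cells was the same before and after LPS, or, read the other way, whether the response to LPS was the same in both genotypes. All 8 of the 8 libraries of the series entered it, 2 for each of the 4 groups, and 12541 of the 47937 genes listed in the count tables had enough reads to be tested. The value given for a gene is the log2 ratio of 3xGrk-/- to WT with LPS minus the same ratio without LPS, from 1 fit of all 8 libraries. A positive value is called a higher interaction and a negative value a lower one, and the same number is the LPS response of 3xGrk-/- cells minus that of WT cells. Levels are in CPM, read counts relative to the TMM-scaled library size, and compare libraries for 1 gene, not genes with each other.

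The groups were unstimulated WT, LPS-stimulated WT, unstimulated 3xGrk-/- and LPS-stimulated 3xGrk-/- mouse BMDCs. Bone marrow of adult C57BL6/J mice was grown for 8 days with 20 ng/ml GM-CSF, a growth factor for myeloid cells. LPS, the cell wall component of Gram-negative bacteria that activates the Toll-like receptor TLR4, was then given at 20 ng/ml for 24 h. Mice of the 3xGrk-/- line lacked Grk3 in every cell (Grk3-/-) and lost their floxed Grk2 and Grk6 alleles (Grk2 fl/fl, Grk6 fl/fl) through Vav-iCre, a Cre active in blood cell precursors. The WT controls carried no Cre and were matched for age and sex. No sorting step is described, so each library mixes all cells of the culture, and fewer cells of a type and less RNA per cell cannot be told apart. The labels number the 2 libraries of a group, and the methods speak of technical replicate RNA. Nothing says that they came from separate mice or cultures, so the p-values measure only the spread between these libraries, which may be technical.

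G protein-coupled receptor kinases (GRKs) phosphorylate activated G protein-coupled receptors, which recruits arrestins and ends the signal. Cultures with GM-CSF contain dendritic cells next to macrophage-like cells. LPS makes dendritic cells mature: they raise costimulatory molecules and the chemokine receptor CCR7, stop taking up antigen and stop dividing. Dendritic cells and macrophages both answer LPS with interferon-stimulated and inflammatory genes.

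Between 4713305 and 6933358 reads per library fell on genes. Ptprc (CD45), Itgax (CD11c), Itgam and both GM-CSF receptor genes were detected in every library. Grk2 had 320.2 and 321 CPM in unstimulated WT and 151 and 146 in unstimulated 3xGrk-/- libraries, and 677 and 736 against 199 and 184 with LPS. Grk6 had 85.4 and 83.4 against 36.9 and 36.99 CPM without and 91.8 and 101 against 33.99 and 32.6 with LPS, and Grk3 338 and 341 against 267 and 263 and 460.1 and 444 against 343 and 335. All 3 targeted genes were thus lower in the 3xGrk-/- libraries with and without LPS. Transcripts of each were still counted, and the source of these was not tested. One library stood apart in 1 respect: Gm42418, a gene overlapping ribosomal RNA, had 149727 counts in LPS-stimulated 3xGrk-/- replicate 2 against 26853 in replicate 1. Ribosomal RNA overlapping genes held 2.46% of that library and 0.317 to 0.745% of the others, but the count of called genes did not single it out: leaving out each of the 8 libraries in turn gave 3328 to 4199 called genes, 3373 without this one, and removing those genes from the table gave 4080 in place of 4070.

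The quasi-likelihood F test of edgeR, with Benjamini-Hochberg adjusted p-values below 0.05, called an interaction in 4070 genes, 32.5% of the 12541 tested. The interaction was higher in 2067 genes (16.5% of those tested) and lower in 2003 (16% of those tested). The higher interactions reached further: 947 genes were higher and 428 lower by at least 1 on the log2 scale, and 316 were higher and 93 lower by at least 2. The median over all tested genes was 0.0057. When 1 library was taken from each group, the interaction kept its sign in all 16 combinations for 4047 of the called genes (99.4%), against 52.9% of all genes tested. The calls were made on the same libraries. The number of calls rests on how little the paired libraries differed, with a common biological coefficient of variation of 0.0463. With DESeq2, 2457 genes were called. At a coefficient set for every gene to 0.1, a value often assumed for inbred animals and tried after seeing the data, 2161 genes were called, 1287 higher and 874 lower. At 0.4, a value often assumed for unrelated human donors, 72 were called, 61 higher and 11 lower.

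Read as a genotype effect, the 4070 called genes fell into 6 classes. The largest held 1591 genes (39.1%) whose difference between 3xGrk-/- and WT passed the test only with LPS. In 829 genes the difference passed in both states and was larger with LPS, in 210 it was smaller with LPS, and in 733 it passed only without LPS. In 589 genes (14.5%) the genotype effect turned around: 263 were lower in unstimulated and higher in LPS-stimulated 3xGrk-/- than in WT cells, and 326 the reverse. The remaining 118 passed in neither state on its own. The genes with an effect that turned around numbered 298 with DESeq2 and 207 at a coefficient of 0.1.

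**Figure D1:**
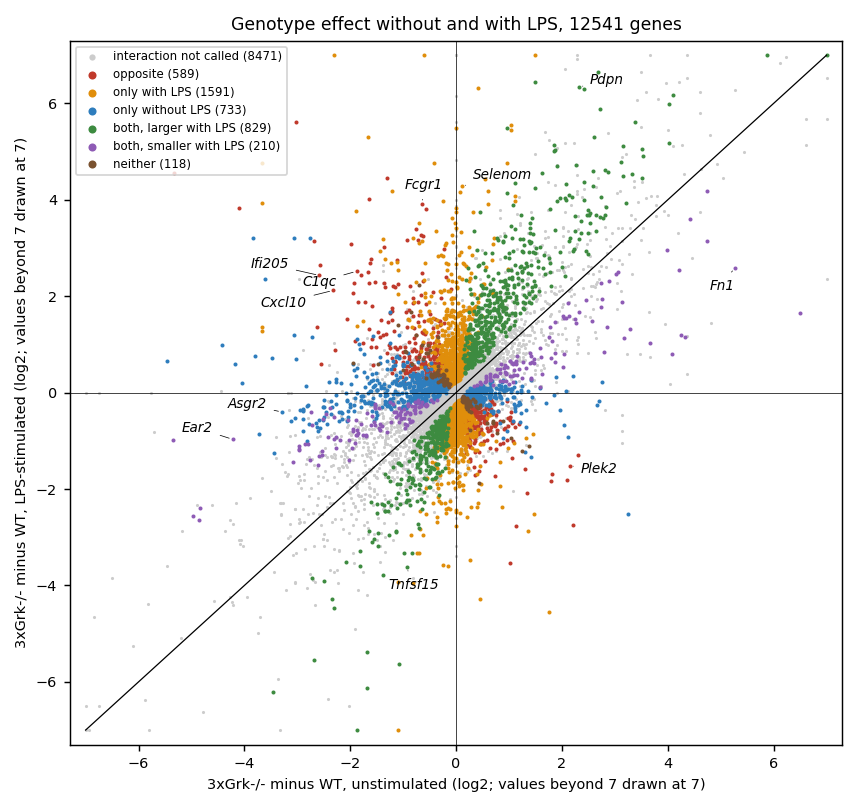
Each point is 1 of the 12541 tested genes, with the log2 ratio of 3xGrk-/- to WT in unstimulated BMDCs on the horizontal axis and in LPS-stimulated BMDCs on the vertical axis, and colours give the class of the called genes. Genes on the diagonal have no interaction, genes above it a higher one and genes below it a lower one, and the 589 genes of opposite effect lie to the upper left and lower right of the origin.

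Read as an LPS response, 1096 of the called genes (26.9%) responded only in WT and 769 only in 3xGrk-/- cells. Both genotypes responded in the same direction in 999 genes with a smaller and in 653 with a larger response in 3xGrk-/- cells. In 507 genes (12.5%) the responses were opposite, 262 of them falling in WT and rising in 3xGrk-/- cells and 245 rising in WT and falling in 3xGrk-/- cells. In the remaining 46 neither response passed alone. Opposite responses were found in 246 genes with DESeq2 and in 217 at a coefficient of 0.1.

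**Figure D2:**
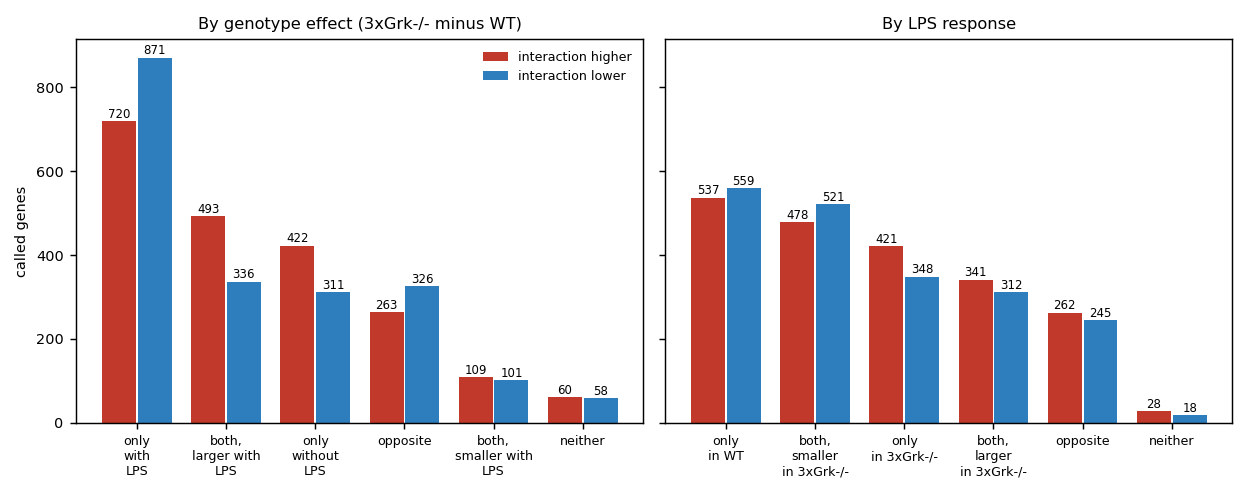
Bars count the called genes of each class, red for a higher and blue for a lower interaction, on the left by genotype effect and on the right by LPS response. The tallest pair holds the 720 higher and 871 lower genes whose genotype effect was called only with LPS.

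The 12 largest higher interactions among genes of at least moderate level were those of Ifi205, Fcgr1, Cxcl10, C1qc, Inpp5j, Ifit2, Selenom, Ms4a4c, Pdpn, C1qb, Srgap3 and Ms4a6c, between 3.88 and 5.01. They are led by interferon-inducible genes, an Fc receptor and complement components. Ifi205 (chromosome 1, 174011998 to 174031810 on GRCm38), an interferon-inducible member of the DNA-sensing Ifi200 family, was at 15.1 and 15.8 CPM in unstimulated WT, 2.54 and 2.605 in unstimulated 3xGrk-/-, 53.9 and 52.9 in LPS-stimulated WT and 278 and 298 in LPS-stimulated 3xGrk-/- BMDCs. It was therefore lowest in unstimulated and highest in LPS-stimulated 3xGrk-/- libraries, with no overlap between groups, and its interaction was 5.01 (SE 0.205, adjusted p = 3.38e-17). Ifi200 genes are close copies of each other, so its counts may include reads of its relatives.

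Fcgr1 encodes the high-affinity IgG receptor CD64, a macrophage marker. It was at 37.4 and 35.6 CPM in unstimulated WT, 23.5 and 23.3 in unstimulated 3xGrk-/-, 20.7 and 20.3 in LPS-stimulated WT and 309.6 and 311 in LPS-stimulated 3xGrk-/- BMDCs. LPS lowered it in WT (log2 -0.83) and raised it in 3xGrk-/- cells (3.73), an interaction of 4.56 (SE 0.131, adjusted p = 2.67e-20). Pdpn, which encodes the glycoprotein podoplanin, was opposite in the same way, with 12.99 and 11.6 CPM in unstimulated WT, 62.7 and 59.7 in unstimulated 3xGrk-/-, 3.27 and 3.404 in LPS-stimulated WT and 261 and 282 in LPS-stimulated 3xGrk-/- BMDCs, and an interaction of 4.01 (SE 0.213). Srgap3, a GTPase-activating protein, also fell in WT and rose in 3xGrk-/- cells, with 21.2 and 19.6 CPM in unstimulated WT, 14.1 and 11.3 in unstimulated 3xGrk-/-, 6.89 and 7.12 in LPS-stimulated WT and 67.8 and 66.96 in LPS-stimulated 3xGrk-/- BMDCs (interaction 3.93, SE 0.204).

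For Selenom and Pgf the genotype difference was called only with LPS. Selenom, an endoplasmic reticulum selenoprotein, was at 6.69 and 6.31 CPM in unstimulated WT, 7.18 and 6.77 in unstimulated 3xGrk-/-, 9.798 and 9.75 in LPS-stimulated WT and 195 and 186 in LPS-stimulated 3xGrk-/- BMDCs (interaction 4.17, SE 0.251). Pgf, placental growth factor, was at 16.2 and 13.3 CPM in unstimulated WT, 13.8 and 15.3 in unstimulated 3xGrk-/-, 10.3 and 9.13 in LPS-stimulated WT and 116 and 108 in LPS-stimulated 3xGrk-/- BMDCs (interaction 3.53, SE 0.206). In both genes the LPS-stimulated 3xGrk-/- libraries stood alone at the top. Inpp5j, an inositol polyphosphate phosphatase, was at 11.8 and 12.2 CPM in unstimulated WT, 8.53 and 7.64 in unstimulated 3xGrk-/-, 14.5 and 15.9 in LPS-stimulated WT and 218 and 209 in LPS-stimulated 3xGrk-/- BMDCs (interaction 4.37, SE 0.201), with a called difference in the opposite direction before LPS, where the 3xGrk-/- libraries were the lowest. Ms4a4c and Ms4a6c, membrane proteins of the MS4A family, were opposite too and had interactions of 4.16 and 3.88. Ms4a4c was at 8.597 and 6.17 CPM in unstimulated WT, 2.24 and 2.26 in unstimulated 3xGrk-/-, 48.1 and 47.7 in LPS-stimulated WT and 256 and 282 in LPS-stimulated 3xGrk-/- BMDCs.

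**Figure D3:**
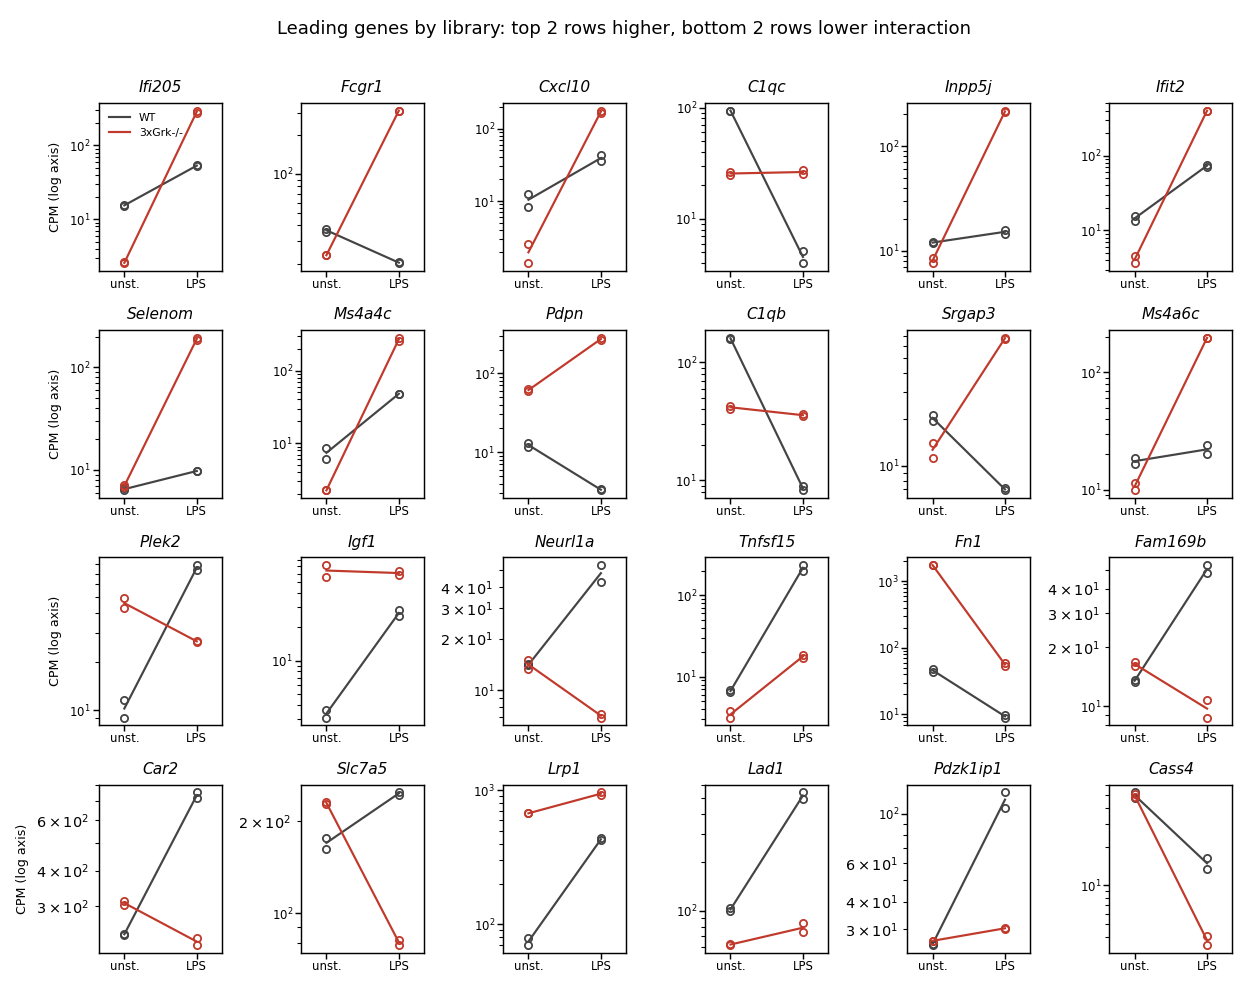
The 12 genes with the largest higher interaction (top 2 rows) and the 12 with the largest lower one (bottom 2 rows) are plotted in CPM on a log axis, without and with LPS, in WT (grey) and 3xGrk-/- BMDCs (red). Circles are libraries and lines join the group means, and non-parallel lines are the interaction, as for C1qc, whose WT line drops while the 3xGrk-/- line stays level.

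The 12 largest lower interactions ran from -3.66 to -1.97 and belonged to Plek2, Igf1, Neurl1a, Tnfsf15, Fn1, Fam169b, Car2, Slc7a5, Lrp1, Lad1, Pdzk1ip1 and Cass4. They were smaller in size than the higher ones. Plek2 (chromosome 12, 78888691 to 78906964), a pleckstrin family protein linked to actin, was at 8.98 and 11.5 CPM in unstimulated WT, 49.2 and 42.7 in unstimulated 3xGrk-/-, 73.3 and 79.2 in LPS-stimulated WT and 26.9 and 26.4 in LPS-stimulated 3xGrk-/- BMDCs. LPS raised it in WT and lowered it in 3xGrk-/- cells, which reversed the genotype difference, and its interaction was -3.66 (SE 0.171, adjusted p = 7.08e-16). Tnfsf15, a TNF family cytokine that costimulates T cells, was at 6.88 and 6.45 CPM in unstimulated WT, 3.74 and 3.13 in unstimulated 3xGrk-/-, 237 and 201 in LPS-stimulated WT and 18.7 and 16.9 in LPS-stimulated 3xGrk-/- BMDCs (interaction -2.69, SE 0.325, adjusted p = 1.51e-07). Its induction was thus seen in both genotypes and was larger in WT. Neurl1a, an E3 ubiquitin ligase, had no called genotype difference before LPS and was at 42.6 and 53.8 CPM in WT against 6.91 and 7.296 in 3xGrk-/- BMDCs after it (interaction -2.77, SE 0.236).

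Other lower interactions belonged to genes that were higher in unstimulated 3xGrk-/- than in WT cells. Fn1, the matrix protein fibronectin, was at 48.1 and 44.01 CPM in unstimulated WT, 1765 and 1757 in unstimulated 3xGrk-/-, 8.89 and 9.75 in LPS-stimulated WT and 53.6 and 58.7 in LPS-stimulated 3xGrk-/- BMDCs. LPS lowered it in both genotypes and much more in 3xGrk-/- cells, so the genotype difference shrank from 5.26 to 2.59 and the interaction was -2.68 (SE 0.145). Igf1, insulin-like growth factor 1, was at 3.63 and 3.08 CPM in unstimulated WT, 56.1 and 71.5 in unstimulated 3xGrk-/-, 28.3 and 24.9 in LPS-stimulated WT and 57.6 and 63.6 in LPS-stimulated 3xGrk-/- BMDCs and rose only in WT cells (interaction -3.06, SE 0.241). Lrp1, an endocytic receptor, was at 69.9 and 78.5 CPM in unstimulated WT, 674 and 671 in unstimulated 3xGrk-/-, 424 and 436 in LPS-stimulated WT and 967 and 919.6 in LPS-stimulated 3xGrk-/- BMDCs (interaction -2.04, SE 0.079). Car2, carbonic anhydrase 2, was at 238 and 239.9 CPM in unstimulated WT, 302 and 314 in unstimulated 3xGrk-/-, 754 and 717 in LPS-stimulated WT and 219 and 231 in LPS-stimulated 3xGrk-/- BMDCs (interaction -2.07, SE 0.076), and Slc7a5, the large neutral amino acid transporter LAT1, at 177 and 163 CPM in unstimulated WT, 232 and 228 in unstimulated 3xGrk-/-, 245 and 249 in LPS-stimulated WT and 81.8 and 78.6 in LPS-stimulated 3xGrk-/- BMDCs (interaction -2.07, SE 0.085). Both rose in WT and fell in 3xGrk-/- cells.

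Genes whose genotype difference was called only before LPS included Asgr2, an asialoglycoprotein receptor subunit. It was at 424 and 433 CPM in unstimulated WT, 42.5 and 45.3 in unstimulated 3xGrk-/-, 2.54 and 3.09 in LPS-stimulated WT and 2.0 and 2.27 in LPS-stimulated 3xGrk-/- BMDCs. Both genotypes were low after LPS, with no called difference between them, and the interaction was 2.89 (SE 0.356). Racgap1, a component of the dividing cell's midzone, was at 59.6 and 61.2 CPM in unstimulated WT, 13.01 and 13.02 in unstimulated 3xGrk-/-, 12.2 and 11.9 in LPS-stimulated WT and 8.54 and 9.57 in LPS-stimulated 3xGrk-/- BMDCs (interaction 1.81, SE 0.216). In other genes the difference was called in both states and was smaller with LPS. Ear2, an eosinophil-associated ribonuclease whose reads may be shared with its close relatives, was at 115 and 111 CPM in unstimulated WT, 5.98 and 6.08 in unstimulated 3xGrk-/-, 70.4 and 84.3 in LPS-stimulated WT and 39.99 and 39.4 in LPS-stimulated 3xGrk-/- BMDCs (interaction 3.25, SE 0.174). Btla, an inhibitory receptor, was at 66.7 and 70.4 CPM in unstimulated WT, 11.5 and 8.68 in unstimulated 3xGrk-/-, 98.2 and 92.5 in LPS-stimulated WT and 68.7 and 74.3 in LPS-stimulated 3xGrk-/- BMDCs (interaction 2.34, SE 0.151).

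**Figure D4:**
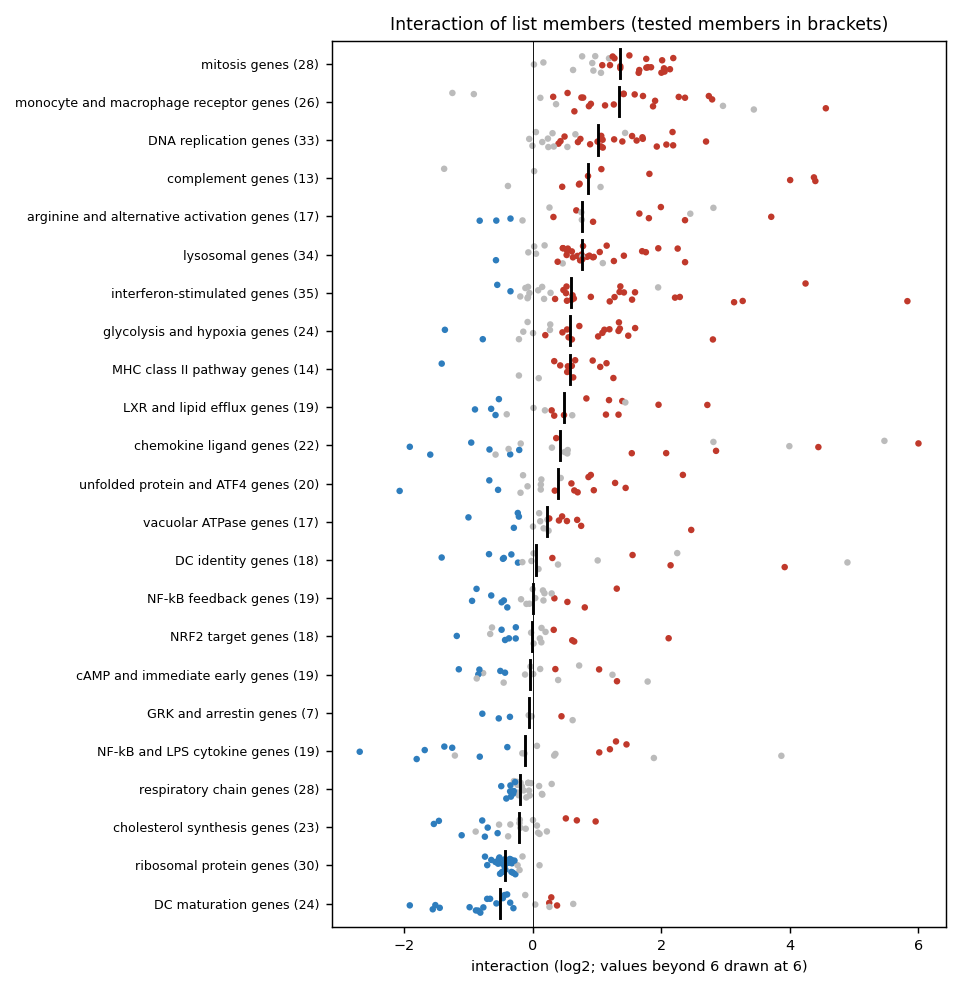
Each row is a list of genes with the number of its tested members, each point the interaction of a member (red, called higher; blue, called lower; grey, not called) and each black bar the list's median. The lists run from DC maturation genes, with a median of -0.51, to mitosis genes, with a median of 1.36, and the members of most lists spread over more than 1 log2 unit.

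Interferon-stimulated genes are transcribed when type I interferon, made after LPS, activates its receptor and the transcription factors downstream. Of 35 tested, 22 had a higher and 2 a lower interaction (68.6% called against 32.5% of all genes), with a median of 0.61. Over all tested genes 16.5% were higher and 16% lower, and in the highest of 4 bins by mean level 55% were called. The same shares stand beside the counts of every list below. The median LPS response of the interferon-stimulated genes was 2.29 in WT and 3.37 in 3xGrk-/- cells, and the median difference between genotypes was 0.15 before and 0.75 after LPS. Rsad2 (viperin), which blocks viral replication, was at 10.1 and 9.39 CPM in unstimulated WT, 8.38 and 8.51 in unstimulated 3xGrk-/-, 149 and 146 in LPS-stimulated WT and 1250.0 and 1222 in LPS-stimulated 3xGrk-/- BMDCs (interaction 3.27, SE 0.157, adjusted p = 1.33e-15). Ifit3 was at 4.59 and 3.92 CPM in unstimulated WT, 2.69 and 4.34 in unstimulated 3xGrk-/-, 45.5 and 47.7 in LPS-stimulated WT and 337 and 337 in LPS-stimulated 3xGrk-/- BMDCs (interaction 3.13, SE 0.288), with reads that its copy Ifit3b may share. Ifit2 was at 15.7 and 13.3 CPM in unstimulated WT, 4.49 and 3.65 in unstimulated 3xGrk-/-, 76.02 and 71.2 in LPS-stimulated WT and 398 and 401 in LPS-stimulated 3xGrk-/- BMDCs (interaction 4.24, SE 0.1904, adjusted p = 2.85e-16). In all 3 genes LPS-stimulated 3xGrk-/- libraries were the highest.

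The extent differed within the list, as mean levels over the 2 libraries of a group show. Isg20, an exonuclease, had mean levels of 3.76 CPM without and 12.8 with LPS in WT, against 0.572 and 114 in 3xGrk-/- BMDCs (interaction 5.83, SE 0.4302), with only 3 and 4 counts in the unstimulated 3xGrk-/- libraries. Ifitm3, which hinders viral entry, had mean levels of 78.3 CPM without and 170.3 with LPS in WT, against 78.6 and 836 in 3xGrk-/- BMDCs (interaction 2.29, SE 0.085), and Cmpk2, the neighbour of Rsad2, mean levels of 4.09 CPM without and 51.7 with LPS in WT, against 6.49 and 386 in 3xGrk-/- BMDCs (interaction 2.22, SE 0.245). The transcription factors of the pathway moved less: the interaction was 0.53 (SE 0.145) for Irf7, which was called, and -0.07 for Stat2 and -0.11 for Irf9, both not called. Zbp1, a sensor of left-handed nucleic acid, had a lower interaction: it was at 20.4 and 19.1 CPM in unstimulated WT, 33.1 and 30.7 in unstimulated 3xGrk-/-, 315 and 341 in LPS-stimulated WT and 368 and 363 in LPS-stimulated 3xGrk-/- BMDCs, with an interaction of -0.55 (SE 0.118, adjusted p = 5.39e-04). Oas3 was the other member with a lower interaction, -0.34 (SE 0.105, adjusted p = 0.0121), and lost its call with DESeq2 and without either of 2 unstimulated libraries.

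Promoter windows of 3 members that hold a known interferon-response element are shown as examples. They give the 250 bases before the RefSeq start on GRCm38.p6, with each match to GAAANNGAA, or to its reverse complement, in capitals, a core of the interferon-stimulated response element.
Rsad2: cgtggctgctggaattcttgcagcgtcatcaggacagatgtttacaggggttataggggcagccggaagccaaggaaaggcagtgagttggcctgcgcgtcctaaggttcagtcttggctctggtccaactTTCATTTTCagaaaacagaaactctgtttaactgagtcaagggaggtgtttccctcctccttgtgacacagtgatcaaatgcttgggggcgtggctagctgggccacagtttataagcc
Ifit3: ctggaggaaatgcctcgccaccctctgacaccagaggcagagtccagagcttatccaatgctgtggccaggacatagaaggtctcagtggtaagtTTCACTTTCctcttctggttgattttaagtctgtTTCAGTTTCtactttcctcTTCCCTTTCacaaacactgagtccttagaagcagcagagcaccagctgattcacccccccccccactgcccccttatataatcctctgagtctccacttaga
Ifit1: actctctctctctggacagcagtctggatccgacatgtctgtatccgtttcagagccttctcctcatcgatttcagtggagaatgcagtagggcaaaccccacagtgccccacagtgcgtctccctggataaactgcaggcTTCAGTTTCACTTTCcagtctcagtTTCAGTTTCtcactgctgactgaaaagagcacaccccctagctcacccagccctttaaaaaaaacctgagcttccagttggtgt
The Rsad2 window lies at chr12:26456453-26456702 (minus strand), the Ifit3 window at chr19:34583279-34583528 (plus strand) and the Ifit1 window at chr19:34640639-34640888 (plus strand). Rsad2 has 1 match, starting 119 bases before the start, Ifit3 has 3 and Ifit1 has 3, of which the first 2 overlap. Of the 26 interferon-stimulated genes with a window, 13 (50%) held the letters on either strand, against 745 (7.88%) of 9452 tested genes with one. Stat2, Ifih1, Gbp5 and Trim30a held a match and had no called interaction.

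Receptors and markers of monocytes and macrophages, the phagocytes that take up particles and dying cells, had the second highest median among the lists of biological programs, 1.34. Of 26 tested members, 20 had a higher and none a lower interaction (76.9% called), and 6 were not called. Their median was -1.09 for the LPS response in WT and 0.14 in 3xGrk-/- cells. Csf1r, the receptor for macrophage colony-stimulating factor, was at 421 and 407 CPM in unstimulated WT, 776 and 745 in unstimulated 3xGrk-/-, 63.1 and 61.3 in LPS-stimulated WT and 558 and 549 in LPS-stimulated 3xGrk-/- BMDCs (interaction 2.27, SE 0.077, adjusted p = 6.37e-19). Siglec1, a sialic acid-binding receptor of macrophages, was at 1.91 and 1.96 CPM in unstimulated WT, 7.93 and 6.599 in unstimulated 3xGrk-/-, 10.9 and 15.2 in LPS-stimulated WT and 348 and 335 in LPS-stimulated 3xGrk-/- BMDCs (interaction 2.79, SE 0.388). It rose in both genotypes, and the LPS-stimulated 3xGrk-/- libraries were far above the rest.

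Lyz2 (lysozyme) was at 1306 and 1355 CPM in unstimulated WT, 7068 and 7093 in unstimulated 3xGrk-/-, 281 and 292 in LPS-stimulated WT and 4558 and 4614 in LPS-stimulated 3xGrk-/- BMDCs, Cd68 had mean levels of 55.6 CPM without and 18.9 with LPS in WT, against 237 and 299.5 in 3xGrk-/- BMDCs and Msr1 mean levels of 63.5 CPM without and 17.8 with LPS in WT, against 290.4 and 294 in 3xGrk-/- BMDCs. Their interactions were 1.59, 1.91 and 1.87. Of the 6 members that were not called, Fcgr4, Marco, Cx3cr1 and Cd5l had 3 counts or fewer in both libraries of at least 1 group. Marco, a scavenger receptor, had 38 and 55 counts in LPS-stimulated WT against 4 and 7 in LPS-stimulated 3xGrk-/- libraries, while Fcgr4, an Fc receptor, had 9 and 5 against 260 and 243. For Lyz2, Itgam, Clec7a, Ccr2 and Mrc1 the direction depends on the scale: on log2 3xGrk-/- cells lost a smaller part of their transcripts with LPS, but in CPM they lost more, because they started higher.

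Complement proteins tag particles and cells for uptake. Of 13 tested complement genes, 9 had a higher and none a lower interaction (69.2% called), with a median of 0.86. The 3 subunits of C1q, which starts the classical pathway, moved together. C1qa was at 59.8 and 54.1 CPM in unstimulated WT, 18.4 and 18.8 in unstimulated 3xGrk-/-, 2.36 and 2.32 in LPS-stimulated WT and 16.2 and 15.9 in LPS-stimulated 3xGrk-/- BMDCs, C1qb at 158 and 162 CPM in unstimulated WT, 42.6 and 40.6 in unstimulated 3xGrk-/-, 8.89 and 8.2 in LPS-stimulated WT and 36.4 and 35.02 in LPS-stimulated 3xGrk-/- BMDCs and C1qc at 93.6 and 94.04 CPM in unstimulated WT, 24.7 and 26.4 in unstimulated 3xGrk-/-, 3.99 and 5.11 in LPS-stimulated WT and 25.4 and 27.2 in LPS-stimulated 3xGrk-/- BMDCs. Unstimulated WT libraries were the highest and LPS-stimulated WT libraries the lowest, while the LPS response of 3xGrk-/- cells was -0.21, -0.23 and 0.05. The interactions were 4.38 (SE 0.245), 4.01 (SE 0.152) and 4.40 (SE 0.194). C3, the central component, behaved otherwise: it was at 214 and 203 CPM in unstimulated WT, 602 and 609.5 in unstimulated 3xGrk-/-, 211 and 213 in LPS-stimulated WT and 1311 and 1280.4 in LPS-stimulated 3xGrk-/- BMDCs, with no called LPS response in WT and a rise in 3xGrk-/- cells (interaction 1.07, SE 0.0704).

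Lysosomes degrade what is taken up. Of 34 tested lysosomal genes, 26 had a higher and 1 a lower interaction (79.4% called), with a median of 0.77, a median LPS response of -0.30 in WT and 0.55 in 3xGrk-/- cells. Grn, the progranulin precursor, was at 479 and 478 CPM in unstimulated WT, 565 and 551 in unstimulated 3xGrk-/-, 179.6 and 199 in LPS-stimulated WT and 1176 and 1107 in LPS-stimulated 3xGrk-/- BMDCs (interaction 2.37, SE 0.075, adjusted p = 1.54e-19), and Psap, which encodes the saposins, at 5049 and 5049 CPM in unstimulated WT, 4739.6 and 4673 in unstimulated 3xGrk-/-, 1947 and 2039 in LPS-stimulated WT and 8924 and 8832 in LPS-stimulated 3xGrk-/- BMDCs (interaction 2.26, SE 0.0496, adjusted p = 4.35e-23). Both fell in WT and rose in 3xGrk-/- cells. The protease Ctsl (cathepsin L) was at 43.9 and 46.4 CPM in unstimulated WT, 729 and 751 in unstimulated 3xGrk-/-, 45.2 and 46.6 in LPS-stimulated WT and 2898 and 2921 in LPS-stimulated 3xGrk-/- BMDCs (interaction 1.96, SE 0.081), without a called response in WT. Ctsb was at 600.1 and 629 CPM in unstimulated WT, 1625 and 1571 in unstimulated 3xGrk-/-, 406 and 427 in LPS-stimulated WT and 3654 and 3694 in LPS-stimulated 3xGrk-/- BMDCs (interaction 1.76, SE 0.062). Glb1, lysosomal beta-galactosidase, was the member with a lower interaction, -0.57 (SE 0.116).

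The vacuolar ATPase acidifies lysosomes, and its 17 tested genes were less uniform, with 7 higher and 4 lower interactions (64.7% called) and a median of 0.23. Atp6v0d2, an isoform of macrophages and osteoclasts, was at 21.2 and 26.8 CPM in unstimulated WT, 116 and 116 in unstimulated 3xGrk-/-, 3.81 and 4.33 in LPS-stimulated WT and 105 and 112 in LPS-stimulated 3xGrk-/- BMDCs (interaction 2.47, SE 0.201). Atp6v0a1 went the other way, at 216 and 217 CPM in unstimulated WT, 339 and 346 in unstimulated 3xGrk-/-, 276 and 281 in LPS-stimulated WT and 227 and 216 in LPS-stimulated 3xGrk-/- BMDCs (interaction -0.996, SE 0.076). The lower members Atp6v1f and Atp6v0e lost their call with DESeq2 and when several single libraries were left out.

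MHC class II molecules present peptides to T cells, and mature dendritic cells cease to make new ones. Of 14 tested genes of the pathway, 11 had a higher and 1 a lower interaction (85.7% called), with a median of 0.58. H2-Ab1 was at 3528 and 3524 CPM in unstimulated WT, 1128 and 1082 in unstimulated 3xGrk-/-, 1494 and 1644 in LPS-stimulated WT and 1191 and 1161 in LPS-stimulated 3xGrk-/- BMDCs (interaction 1.26, SE 0.063, adjusted p = 3.94e-15). H2-Aa and H2-Eb1 were alike, with interactions of 1.05 (SE 0.057) and 1.15 (SE 0.065). For these 3 chains, LPS lowered the WT level toward that of 3xGrk-/- cells, in which no LPS response was called. Cd74, the invariant chain, was at 11815 and 12089.7 CPM in unstimulated WT, 6471 and 6314 in unstimulated 3xGrk-/-, 7366 and 8273 in LPS-stimulated WT and 6536 and 6432 in LPS-stimulated 3xGrk-/- BMDCs (interaction 0.63, SE 0.055), and Ciita, the master regulator of the class II genes, had mean levels of 546 CPM without and 179.7 with LPS in WT, against 202 and 105 in 3xGrk-/- BMDCs (interaction 0.66, SE 0.081). H2-Eb2 was the lower member, with 69.9 and 70.2 CPM in unstimulated WT, 13.3 and 11.5 in unstimulated 3xGrk-/-, 20.1 and 16.6 in LPS-stimulated WT and 0.727 and 1.62 in LPS-stimulated 3xGrk-/- BMDCs (interaction -1.41, SE 0.374, adjusted p = 0.00354), and its call was lost without LPS-stimulated 3xGrk-/- replicate 1.

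Genes of dendritic cell maturation, which prepare the cell to migrate and to activate T cells, had the lowest median among the lists of biological programs, -0.51. Of 24 tested, 17 had a lower and 3 a higher interaction (83.3% called against 32.5% of all genes), and the median LPS response was 1.14 in WT and 0.35 in 3xGrk-/- cells. Ccl22, a chemokine for regulatory T cells, was at 5966 and 6080.4 CPM in unstimulated WT, 10789 and 10699.5 in unstimulated 3xGrk-/-, 22768 and 23582 in LPS-stimulated WT and 11004 and 11030.4 in LPS-stimulated 3xGrk-/- BMDCs. LPS raised it in WT and no response was called in 3xGrk-/- cells, an interaction of -1.91 (SE 0.042, adjusted p = 4.35e-23). Fscn1 (fascin), which bundles actin in the dendrites, was at 1783 and 1685 CPM in unstimulated WT, 2392 and 2414 in unstimulated 3xGrk-/-, 5679.5 and 6229.6 in LPS-stimulated WT and 2948 and 2846 in LPS-stimulated 3xGrk-/- BMDCs (interaction -1.51, SE 0.061). Both genes were higher in 3xGrk-/- than in WT cells before LPS and lower after it.

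The costimulatory genes were affected to different extents. Cd86 was at 280.5 and 285 CPM in unstimulated WT, 306 and 297 in unstimulated 3xGrk-/-, 1655 and 1680.1 in LPS-stimulated WT and 947 and 986 in LPS-stimulated 3xGrk-/- BMDCs (interaction -0.88, SE 0.066, adjusted p = 1.72e-11), and Cd83 at 554 and 538 CPM in unstimulated WT, 433 and 421 in unstimulated 3xGrk-/-, 1137 and 1173 in LPS-stimulated WT and 463 and 454 in LPS-stimulated 3xGrk-/- BMDCs (interaction -0.98, SE 0.067). Cd40 was at 87.3 and 82.4 CPM in unstimulated WT, 99.2 and 98.98 in unstimulated 3xGrk-/-, 406 and 422 in LPS-stimulated WT and 354 and 362 in LPS-stimulated 3xGrk-/- BMDCs (interaction -0.43, SE 0.083). Cd80 was at 163 and 146 CPM in unstimulated WT, 114 and 113 in unstimulated 3xGrk-/-, 615 and 623 in LPS-stimulated WT and 419 and 424 in LPS-stimulated 3xGrk-/- BMDCs, lower in 3xGrk-/- cells in both states, and its interaction of -0.11 (SE 0.081, adjusted p = 0.318) was not called. Ccr7, the receptor that guides mature dendritic cells to lymph nodes, was at 1230.0 and 1218 CPM in unstimulated WT, 1452 and 1448 in unstimulated 3xGrk-/-, 3675 and 3884 in LPS-stimulated WT and 3081 and 2987 in LPS-stimulated 3xGrk-/- BMDCs. It rose with LPS in both genotypes, less in 3xGrk-/- cells (interaction -0.56, SE 0.057, adjusted p = 5.56e-09). The 3 members with a higher interaction were Il4i1, Marcksl1 and Cd274, which encodes the inhibitory ligand PD-L1, at 0.38, 0.29 and 0.26.

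Genes that define dendritic cell identity had no common direction: 4 of 18 were higher and 6 lower (55.6% called, median 0.06). Itgax (CD11c), the surface integrin by which the cultures are usually identified, was at 952 and 941 CPM in unstimulated WT, 1096 and 1069 in unstimulated 3xGrk-/-, 63.1 and 70.9 in LPS-stimulated WT and 336 and 344 in LPS-stimulated 3xGrk-/- BMDCs. It fell with LPS in both genotypes, less in 3xGrk-/- cells (interaction 2.15, SE 0.077, adjusted p = 2.00e-18). Irf8, a transcription factor of dendritic cells and monocytes, was at 278 and 294 CPM in unstimulated WT, 507 and 507 in unstimulated 3xGrk-/-, 1450.1 and 1498 in LPS-stimulated WT and 999 and 963 in LPS-stimulated 3xGrk-/- BMDCs (interaction -1.41, SE 0.067, adjusted p = 1.01e-15), and Irf4 had mean levels of 411 CPM without and 371 with LPS in WT, against 274 and 155 in 3xGrk-/- BMDCs (interaction -0.68, SE 0.076). Zbtb46, a factor restricted to classical dendritic cells, had an interaction of 0.02 (SE 0.094, adjusted p = 0.92) and was not called. Itgae had 34.01 and 32.8 CPM in unstimulated WT, 11.97 and 9.03 in unstimulated 3xGrk-/-, 0 and 0.464 in LPS-stimulated WT and 1.64 and 0.973 in LPS-stimulated 3xGrk-/- BMDCs, and with at most 3 counts in both LPS-stimulated WT libraries no fold is given for it.

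**Figure D5:**
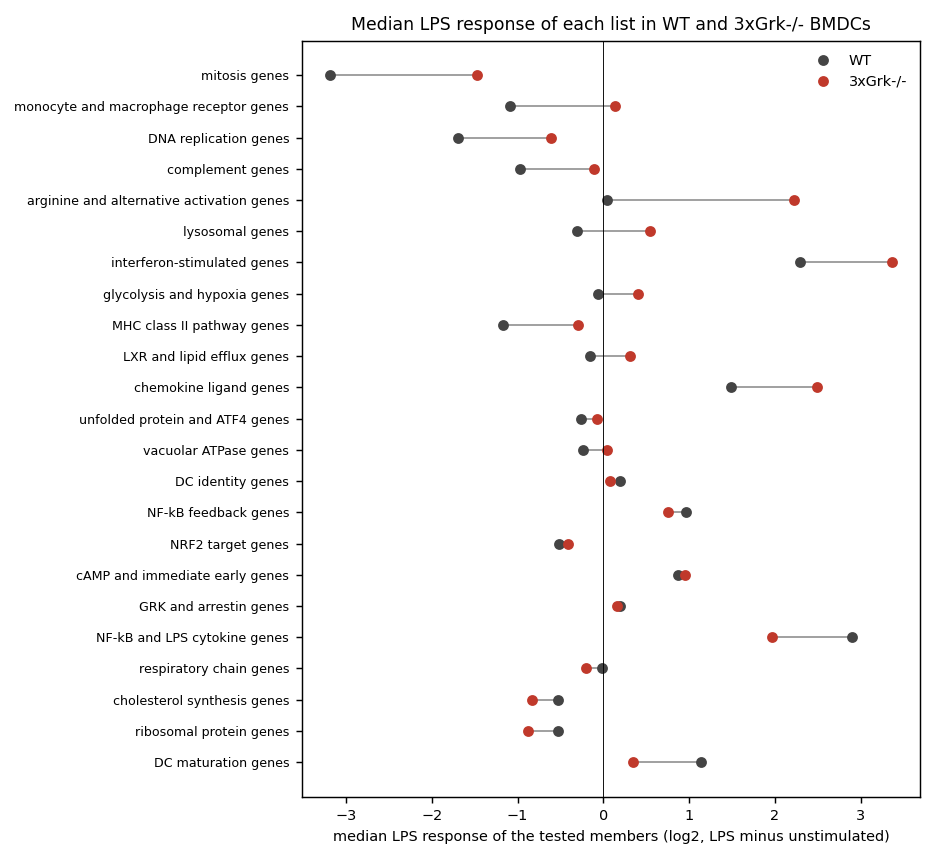
For each list, the median LPS response of its tested members is shown for WT (grey) and 3xGrk-/- BMDCs (red) in log2 units, ordered by the median interaction. The red point lies to the right for mitosis, macrophage receptor, lysosomal and interferon-stimulated genes and to the left for DC maturation and ribosomal protein genes.

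Of the cytokine genes induced by NF-kB, 4 of 19 were higher and 7 lower (57.9% called), and the median was -0.12, or 0.05 with members raised to the detection limit of 3 counts. Il12b and Ebi3, subunits of interleukin 12 family cytokines, were among the lower ones. Il12b, the shared p40 subunit of interleukins 12 and 23, was at 27.5 and 29.7 CPM in unstimulated WT, 22.6 and 23.3 in unstimulated 3xGrk-/-, 255 and 261 in LPS-stimulated WT and 58.9 and 59.2 in LPS-stimulated 3xGrk-/- BMDCs (interaction -1.80, SE 0.129, adjusted p = 6.21e-12), and Ebi3, a subunit of interleukins 27 and 35, at 39.9 and 39.9 CPM in unstimulated WT, 29.9 and 30.9 in unstimulated 3xGrk-/-, 353 and 379 in LPS-stimulated WT and 112 and 104 in LPS-stimulated 3xGrk-/- BMDCs (interaction -1.37, SE 0.115). Their partner subunit genes Il12a and Il27 were not called: with LPS, Il12a had 44 and 41 counts in WT against 86 and 90 in 3xGrk-/- libraries, and Il27 had 5 and 11 against 66 and 77, with few or no counts before LPS. Il1a and Il1b were lower as well (-1.68 and -0.82). Il1a was at 4.59 and 4.91 CPM in unstimulated WT, 85.6 and 92.9 in unstimulated 3xGrk-/-, 179.8 and 164 in LPS-stimulated WT and 958 and 1039.8 in LPS-stimulated 3xGrk-/- BMDCs, so that it was highest in LPS-stimulated 3xGrk-/- libraries, and its lower interaction reflects a smaller ratio to WT after LPS than before it. Il6 was at 4.39 and 3.92 CPM in unstimulated WT, 5.39 and 4.17 in unstimulated 3xGrk-/-, 120.3 and 113 in LPS-stimulated WT and 324 and 344 in LPS-stimulated 3xGrk-/- BMDCs (interaction 1.30, SE 0.255, adjusted p = 1.98e-04), and Il1rn, the interleukin 1 receptor antagonist, at 84.6 and 90.4 CPM in unstimulated WT, 486 and 489 in unstimulated 3xGrk-/-, 145 and 138 in LPS-stimulated WT and 1778 and 1837 in LPS-stimulated 3xGrk-/- BMDCs (interaction 1.203, SE 0.076). Tnf, at an interaction of 0.36 (SE 0.1504, adjusted p = 0.0717), was not called.

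Several inducible genes had almost no reads before LPS, so their interaction could not be estimated well. Il10 had no counts in the 4 unstimulated libraries, 2 and 1 counts in LPS-stimulated WT and 21 and 25 in LPS-stimulated 3xGrk-/- libraries. Nos2, which makes nitric oxide, had 0, 2, 6 and 2 counts in the unstimulated libraries, 138 and 181 in LPS-stimulated WT and 2975 and 3212 in LPS-stimulated 3xGrk-/- libraries, and its interaction had an adjusted p of 0.187. Dcn, which encodes the matrix proteoglycan decorin, had no counts without LPS, 13 and 7 in LPS-stimulated WT and 699 and 698 in LPS-stimulated 3xGrk-/- libraries. In all 3 genes the LPS-stimulated 3xGrk-/- libraries lay far above the LPS-stimulated WT libraries.

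The median of 22 chemokine ligand genes was 0.43, with 6 higher and 6 lower (54.5% called), but -0.17 over the members with at least 10 counts in every library. Ligands of CCR2 and CXCR3, which draw monocytes and activated T cells, were among the higher. Cxcl10 was at 12.6 and 8.27 CPM in unstimulated WT, 2.54 and 1.39 in unstimulated 3xGrk-/-, 35.2 and 43.2 in LPS-stimulated WT and 177 and 166 in LPS-stimulated 3xGrk-/- BMDCs (interaction 4.44, SE 0.305, adjusted p = 2.25e-12). Ccl2 was at 19.9 and 17.5 CPM in unstimulated WT, 212 and 214 in unstimulated 3xGrk-/-, 32.7 and 36.2 in LPS-stimulated WT and 1141 and 1171 in LPS-stimulated 3xGrk-/- BMDCs (interaction 1.54, SE 0.115) and Ccl7 at 2.102 and 2.24 CPM in unstimulated WT, 36.9 and 38.7 in unstimulated 3xGrk-/-, 5.26 and 5.72 in LPS-stimulated WT and 401 and 401 in LPS-stimulated 3xGrk-/- BMDCs (interaction 2.08, SE 0.312). Ccl12 had 16 and 16 counts in unstimulated WT, 13 and 8 in unstimulated 3xGrk-/-, 0 and 1 in LPS-stimulated WT and 89 and 128 in LPS-stimulated 3xGrk-/- libraries. Among the lower ones, Cxcl3, a neutrophil attractant, was at 22.2 and 20.6 CPM in unstimulated WT, 562 and 578 in unstimulated 3xGrk-/-, 138 and 129 in LPS-stimulated WT and 1179 and 1183 in LPS-stimulated 3xGrk-/- BMDCs (interaction -1.59, SE 0.092), and Ccl9 fell with LPS only in 3xGrk-/- cells (-0.95).

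Feedback genes of NF-kB signalling showed no common direction, with 4 of 19 higher, 6 lower (52.6% called) and a median of 0.0042. Nfkbiz, a nuclear cofactor for late NF-kB targets, was at 15.7 and 12.3 CPM in unstimulated WT, 21.2 and 23.96 in unstimulated 3xGrk-/-, 97.6 and 98.1 in LPS-stimulated WT and 85.8 and 81.1 in LPS-stimulated 3xGrk-/- BMDCs (interaction -0.94, SE 0.162). Nfkbib and the subunit genes Nfkb1, Nfkb2 and Rel were lower too (-0.87, -0.64, -0.45 and -0.39). The 4 higher members were Dusp2 (1.31, SE 0.467), Irak3, an inhibitor of Toll-like receptor signalling (0.81, SE 0.159), Dusp1 (0.54) and Tnfaip3 (0.34). Dusp2 lost its call with DESeq2. Nfkbia, the classical inhibitor, was not called (-0.09, SE 0.073, adjusted p = 0.362).

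Genes of mitosis had the highest median of the lists, 1.36, with 19 of 28 higher and none lower (67.9% called). Mki67, which marks dividing cells, was at 214 and 224 CPM in unstimulated WT, 42.3 and 41.8 in unstimulated 3xGrk-/-, 27.9 and 30.5 in LPS-stimulated WT and 26.9 and 20.1 in LPS-stimulated 3xGrk-/- BMDCs (interaction 2.05, SE 0.151, adjusted p = 1.05e-11). Top2a, a topoisomerase that untangles chromosomes, was at 199 and 205 CPM in unstimulated WT, 39.3 and 34.2 in unstimulated 3xGrk-/-, 22.7 and 25.2 in LPS-stimulated WT and 16.7 and 18.6 in LPS-stimulated 3xGrk-/- BMDCs (interaction 2.02, SE 0.157, adjusted p = 3.45e-11). Unstimulated WT libraries stood alone at the top, and the other 3 groups were low. The median LPS response was -3.19 in WT and -1.47 in 3xGrk-/- cells, and the median difference between genotypes shrank from -2.53 without to -1.20 with LPS. No mitosis gene that was called changed its direction on the CPM scale.

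Genes of DNA replication were higher in 22 of 33 cases and lower in none (66.7% called), with a median of 1.01. The helicase subunit genes Mcm5 and Mcm7 had interactions of 1.55 (SE 0.151) and 1.09 (SE 0.1602), and Cdt1, which loads the helicase, 1.71 (SE 0.285). Tfrc, the transferrin receptor that dividing and erythroid cells carry, was at 269 and 311 CPM in unstimulated WT, 51.2 and 47.8 in unstimulated 3xGrk-/-, 19.2 and 18.4 in LPS-stimulated WT and 28 and 29.02 in LPS-stimulated 3xGrk-/- BMDCs (interaction 3.15, SE 0.149, adjusted p = 9.79e-16).

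The Mki67 promoter window is given as an example of the CCAAT box that genes of mitosis often hold, with matches on either strand in capitals.
Mki67: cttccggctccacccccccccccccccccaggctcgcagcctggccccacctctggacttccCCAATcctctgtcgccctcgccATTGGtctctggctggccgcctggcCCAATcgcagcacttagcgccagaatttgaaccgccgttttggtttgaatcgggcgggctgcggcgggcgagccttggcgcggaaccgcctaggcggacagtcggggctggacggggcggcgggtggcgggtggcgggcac
It lies at chr7:135716380-135716629 (minus strand) on GRCm38.p6 and holds 3 matches. Of 24 mitosis genes with a window, 20 (83.3%) held CCAAT, against 3837 (40.6%) of 9452 tested genes, and 9 (37.5%) held TTTGAA, a core of the cell cycle homology region, against 1246 (13.2%). Of 27 DNA replication genes with a window, 3 (11.1%) held TTTGGCGC, an E2F site, against 88 (0.931%), and 4 (14.8%) held TTTCGCGC against 60 (0.635%).

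Genes of glycolysis and of the hypoxia response, which macrophages raise after LPS, were higher in 16 of 24 cases and lower in 2 (75% called), with a median of 0.59. Vegfa was at 9.74 and 8.55 CPM in unstimulated WT, 14.96 and 13.4 in unstimulated 3xGrk-/-, 37.7 and 43.2 in LPS-stimulated WT and 189 and 196 in LPS-stimulated 3xGrk-/- BMDCs (interaction 1.596, SE 0.192, adjusted p = 1.32e-07). Hif1a, the oxygen-regulated transcription factor, had mean levels of 132 CPM without and 137 with LPS in WT, against 146 and 344 in 3xGrk-/- BMDCs (interaction 1.196, SE 0.091), and Slc16a3, the lactate exporter, mean levels of 65.3 CPM without and 43.5 with LPS in WT, against 82.4 and 141 in 3xGrk-/- BMDCs (interaction 1.36, SE 0.109). Pfkp, the platelet isoform of phosphofructokinase, was lower, at 527 and 535 CPM in unstimulated WT, 447 and 440.4 in unstimulated 3xGrk-/-, 566 and 585 in LPS-stimulated WT and 192 and 183 in LPS-stimulated 3xGrk-/- BMDCs (interaction -1.36, SE 0.072). Gapdh, Pgk1 and Pkm were not called (-0.08, -0.14 and 0.01).

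Ribosomal protein genes were lower in 26 of 30 cases and higher in none (86.7% called). The steps were small, with a median of -0.43. Rpl3 was at 698 and 689 CPM in unstimulated WT, 494 and 505 in unstimulated 3xGrk-/-, 319 and 339 in LPS-stimulated WT and 147 and 138 in LPS-stimulated 3xGrk-/- BMDCs (interaction -0.74, SE 0.076, adjusted p = 7.08e-09). The summed level of the 30 genes was 20799.6 and 20611.6 CPM in unstimulated WT, 16767.2 and 16404.4 in unstimulated 3xGrk-/-, 13850.8 and 15291.9 in LPS-stimulated WT and 9008.95 and 8894.88 in LPS-stimulated 3xGrk-/- BMDCs. LPS thus lowered it in both genotypes, further in 3xGrk-/- cells. For 5 of the called genes, Rpl10a, Rpl14, Rpl3 and Rpl4 among them, the direction was reversed in CPM. Nuclear genes of the respiratory chain were lower in 9 of 28 cases (32.1%) and higher in none. Among all genes 32.5% were called, with 16% lower, and 36% were lower in the highest of 4 bins by mean level.

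Among 23 cholesterol synthesis genes, 3 were higher and 7 lower (43.5% called against 32.5% of all genes, median -0.20). Cyp51, an enzyme of the pathway, was at 91.5 and 94.3 CPM in unstimulated WT, 60.7 and 70.8 in unstimulated 3xGrk-/-, 89.3 and 84.01 in LPS-stimulated WT and 24.7 and 19.9 in LPS-stimulated 3xGrk-/- BMDCs (interaction -1.46, SE 0.138). Of 19 genes listed under the nuclear receptor LXR and lipid efflux, 10 were higher and 4 lower (73.7% called against 32.5% of all genes, median 0.49). The list is mixed and also held Spp1 and Cd63, which do not export lipids. Abca1, the cholesterol exporter, was at 50.1 and 51.4 CPM in unstimulated WT, 141 and 144 in unstimulated 3xGrk-/-, 49.7 and 41.9 in LPS-stimulated WT and 325 and 349 in LPS-stimulated 3xGrk-/- BMDCs (interaction 1.40, SE 0.1095, adjusted p = 3.99e-11), and Spp1 (osteopontin) at 79.3 and 95.7 CPM in unstimulated WT, 792 and 780.2 in unstimulated 3xGrk-/-, 20.9 and 17.3 in LPS-stimulated WT and 666 and 652 in LPS-stimulated 3xGrk-/- BMDCs (interaction 1.96, SE 0.114). Apoe was lower at -0.58 (SE 0.196, adjusted p = 0.0235), although its level was highest in LPS-stimulated 3xGrk-/- cells, and its direction and those of Spp1 and Cd63 were reversed in CPM.

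Targets of the oxidative stress factor NRF2 had no common direction, with 4 of 18 higher, 6 lower (55.6% called) and a median of -0.0024. Hmox1, heme oxygenase 1, was at 62.5 and 67.3 CPM in unstimulated WT, 172 and 173 in unstimulated 3xGrk-/-, 31.2 and 32.8 in LPS-stimulated WT and 365 and 372 in LPS-stimulated 3xGrk-/- BMDCs (interaction 2.12, SE 0.0999, adjusted p = 9.04e-16), falling in WT and rising in 3xGrk-/- cells, whereas Gpx1, glutathione peroxidase 1, was at 466 and 446 CPM in unstimulated WT, 671 and 657 in unstimulated 3xGrk-/-, 883 and 979.7 in LPS-stimulated WT and 615 and 585 in LPS-stimulated 3xGrk-/- BMDCs (interaction -1.18, SE 0.074). In the unfolded protein and ATF4 response, 10 of 20 were higher and 3 lower (65% called against 32.5% of all genes, median 0.39). Ddit3 (CHOP) was at 12.8 and 15.8 CPM in unstimulated WT, 16.9 and 14.9 in unstimulated 3xGrk-/-, 24.3 and 25.5 in LPS-stimulated WT and 66.5 and 67.3 in LPS-stimulated 3xGrk-/- BMDCs (interaction 1.28, SE 0.185) and the chaperone gene Hspa5 had mean levels of 507 CPM without and 425 with LPS in WT, against 399.8 and 649 in 3xGrk-/- BMDCs (interaction 0.95, SE 0.0701). Slc7a5, an ATF4 target named above, was the lowest member.

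Of 19 genes that answer cyclic AMP or act as immediate early genes, 3 were higher and 5 lower, and their median was -0.03, or 0.0022 with members raised to the detection limit. Signalling of G protein-coupled receptors was not measured. Nr4a3, an orphan nuclear receptor, was at 685 and 708 CPM in unstimulated WT, 536 and 567 in unstimulated 3xGrk-/-, 907 and 819 in LPS-stimulated WT and 306 and 311 in LPS-stimulated 3xGrk-/- BMDCs (interaction -1.15, SE 0.075, adjusted p = 8.90e-13). Crem and Jun were lower (-0.50 and -0.43), and Sik1 and Thbs1 higher (1.31 and 1.04). Fos and Junb were not called (0.12 and -0.03). The share of called members, 42.1%, compares with 32.5% over all genes.

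Genes of arginine use and alternative activation were higher in 8 and lower in 3 of 17 cases (64.7% called), with a median of 0.77, or 0.98 with members raised to the detection limit. The median was 0.33 over members with at least 10 counts in every library and 0.32 without unstimulated WT replicate 2. For 5 of the 11 called members, Slc7a2 among them, the direction was reversed in CPM. Slc7a2, the arginine transporter, was at 19.9 and 22.7 CPM in unstimulated WT, 458 and 466 in unstimulated 3xGrk-/-, 231 and 218 in LPS-stimulated WT and 2693 and 2772 in LPS-stimulated 3xGrk-/- BMDCs (interaction -0.82, SE 0.088). Tgm2, transglutaminase 2, was at 42.99 and 40.4 CPM in unstimulated WT, 39.04 and 40.6 in unstimulated 3xGrk-/-, 206 and 227 in LPS-stimulated WT and 672 and 641 in LPS-stimulated 3xGrk-/- BMDCs, with no called genotype difference before LPS and a higher level in 3xGrk-/- cells after it (interaction 1.66, SE 0.104, adjusted p = 3.76e-13).

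Among the GRK and arrestin genes, the interaction was lower for Grk2, at -0.78 (SE 0.082, adjusted p = 1.08e-08). LPS raised Grk2 by 1.14 in WT and by 0.36 in 3xGrk-/- cells, so that the targeted gene itself differed more after LPS. Grk3 had no called interaction (-0.06, SE 0.073, adjusted p = 0.586). Grk6 was at -0.35 (SE 0.126, adjusted p = 0.0333) and Grk5, which was not targeted, at -0.52 (SE 0.173, adjusted p = 0.0201), from 26.2 and 25.2 CPM in unstimulated WT, 22.3 and 21.2 in unstimulated 3xGrk-/-, 29.8 and 32.8 in LPS-stimulated WT and 18 and 18.97 in LPS-stimulated 3xGrk-/- BMDCs. The calls of Grk5 and Grk6 were lost with DESeq2 and without any of several single libraries. Arrb1 (beta-arrestin 1) was higher (0.45, SE 0.078) and Arrb2 not called (-0.01).

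Markers of other cell types were summed in every library. The 11 eosinophil genes came to between 1209 and 1428 CPM in the WT and between 75.2 and 92.3 in the 3xGrk-/- libraries, and 3 of them had an interaction, 1 higher and 2 lower (27.3% against 32.5% of all genes). The higher one was Ear2, described above, with 3.25. Alox15 was at 73.4 and 73.4 CPM in unstimulated WT, 6.13 and 7.29 in unstimulated 3xGrk-/-, 42.8 and 49.2 in LPS-stimulated WT and 0.364 and 0.811 in LPS-stimulated 3xGrk-/- BMDCs (interaction -2.76, SE 0.433) and Siglecf at 20.4 and 20.5 CPM in unstimulated WT, 19 and 16.5 in unstimulated 3xGrk-/-, 14.7 and 14.7 in LPS-stimulated WT and 3.64 and 1.95 in LPS-stimulated 3xGrk-/- BMDCs (interaction -2.21, SE 0.287). The 17 neutrophil genes summed to 1054 and 1011 CPM in unstimulated WT, 1653 and 1679.9 in unstimulated 3xGrk-/-, 746 and 834 in LPS-stimulated WT and 2235 and 2223 in LPS-stimulated 3xGrk-/- libraries, higher in 3xGrk-/- cells in both states. Without Lcn2 the sum was 985.6 and 942.5, 1572 and 1597, 406.6 and 466, and 654.6 and 679.7 CPM in the same order, so the difference was there without this gene too. Lcn2, which macrophages also make, was at 68.01 and 68.95 CPM in unstimulated WT, 81.4 and 82.5 in unstimulated 3xGrk-/-, 339 and 368 in LPS-stimulated WT and 1580.5 and 1543 in LPS-stimulated 3xGrk-/- BMDCs (interaction 1.89, SE 0.083). Of the 17 genes, 3 had a higher and 3 a lower interaction (35.3% called, close to the 32.5% of all genes). The granule gene Ngp and S100a9 were lower (-0.76 and -0.62), and the direction of S100a9 was reversed in CPM.

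Lymphocyte genes summed to at most 11.7 CPM, and 2 of 14 were tested and none called. Mast cell and basophil genes summed to between 50.2 and 296 CPM, and of 7 tested, 1 had a higher and 2 a lower interaction (42.9% called against 32.5% of all genes, median 0.04). The higher one was Hdc, the histidine decarboxylase that LPS induces in myeloid cells, at 6.305 and 10.9 CPM in unstimulated WT, 15.7 and 18.4 in unstimulated 3xGrk-/-, 54.98 and 56.5 in LPS-stimulated WT and 254 and 259 in LPS-stimulated 3xGrk-/- BMDCs (interaction 1.28, SE 0.203). Gata2, a transcription factor of mast cells and progenitors, had a lower interaction (-1.15, SE 0.255), at 7.07 and 8.55 CPM in unstimulated WT, 20.05 and 22.4 in unstimulated 3xGrk-/-, 9.44 and 11.6 in LPS-stimulated WT and 14.4 and 11.3 in LPS-stimulated 3xGrk-/- BMDCs. Ms4a2, a subunit of the IgE receptor, did too (-2.84, SE 1.07), but on 1 count in each LPS-stimulated 3xGrk-/- library and at most 23 in any other, and it lost its call in 7 settings, DESeq2 and voom among them. The erythroid genes summed to 273.8 and 313.4 CPM in unstimulated WT and to between 32.7 and 60.3 in the other libraries, with unstimulated WT alone at the top as for the mitosis genes. In unstimulated WT nearly all of it was Tfrc, described with the replication genes, and the other tested member, the globin gene Hbb-bt, had a lower interaction (-2.89, SE 0.334, adjusted p = 6.14e-08). The stromal sum was 1769 and 1759.9 CPM in unstimulated 3xGrk-/- libraries, nearly all of it Fn1. In LPS-stimulated 3xGrk-/- libraries it was 204 and 201 CPM, of which Dcn, described above, made up 127 and 113, while Dcn was at 2.36 and 1.08 CPM in LPS-stimulated WT. The part of other cell types in the interactions of the lists above was not tested.

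The share of called genes grew with the number of reads. When the tested genes were split by mean level into 4 bins of equal size, 15.5% of the lowest bin and 55% of the highest were called. In the lowest bin 344 calls were higher and 142 lower, whereas in the highest 597 were higher and 1128 lower, and the median interaction was 0.21 and -0.12. The median size of a called interaction was 2.05 in the lowest bin and 0.48 in the highest. Among biotypes, 34.3% of 11512 protein-coding genes were called, 14.6% of 151 lincRNA genes and 4.4% of 318 processed pseudogenes. Over the autosomes and the X, the share called per chromosome lay between 27.1% on the X and 36.1% on chromosome 19. The direction also depends on the scale: as a difference of differences in CPM, 129 of the called genes turned, 51 of them higher and 78 lower on the log2 scale. Of the genes named above these include Il1a, Il1b, Cxcl3, Zbp1, Oas3, H2-Eb2, Slc7a2, Alox15 and S100a9.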

How the data were processed

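RNA of mouse BMDCs was sequenced in 8 TruSeq stranded mRNA libraries, 2 for each genotype with and without LPS. The authors aligned reads to the mouse genome (GRCm38, per the labels) with STAR within snakePipes and counted them per gene with featureCounts, and the deposited tables hold raw counts per gene. The annotation release and the strand setting of the counting are not given in the sources used here, so overlapping and antisense genes may share reads. The tables, 1 without and 1 with LPS, were joined on Ensembl gene ID. Libraries held 4713305 to 6933358 counts, and genes for which neither library of a group exceeded 3 counts were taken as at the detection limit there.

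Counts were analysed in R 4.3.3 with edgeR 4.0.16 (filterByExpr, TMM scaling, glmQLFit and glmQLFTest). One model with a mean per group was fitted to all 8 libraries, and the interaction and the 4 simple effects were contrasts of it. Called means a Benjamini-Hochberg adjusted p under 0.05 over all 12541 genes tested. SE is the log2 value divided by the square root of F. The script was tested on simulated data. Alternatives were DESeq2 1.42.0, limma 3.58.1 (voom), other scalings and filters, fixed coefficients of variation, a replicate block, each library left out, and CPM differences.

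The gene lists and the members described were chosen with earlier results of these data known. Genes were named by a rule: the 12 largest called interactions in each direction whose log2 CPM averaged 4 or more, with the same sign in all 16 combinations of 1 library per group, the 4 largest of each class, and of each list the 4 largest and up to 2 in the other direction. Further members were named for their role, with their values seen. Promoters came from RefSeq (GRCm38.p6), and 9452 tested genes had a window. Some genes are not reported here.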

Additional observations from a re-analysis of the deposited data

Results flagged for a closer look

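These results are listed because the difference between the effects of 2 groups was itself tested. The interaction was called in 4070 genes, 2067 higher and 2003 lower, with genotype effects in opposite directions in 589 and opposite LPS responses in 507. Of the genes with opposite genotype effects or LPS responses and a mean log2 CPM of at least 4, the few largest of each kind are given, and Isg20, at a lower level, and others named above are not repeated. The log2 interaction was 5.01 for Ifi205, 4.56 for Fcgr1, 4.44 for Cxcl10, 4.40 for C1qc, 4.01 for Pdpn and 3.93 for Srgap3. Groups of 2 libraries allow no test for a library apart from its group.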

How the results depend on the processing

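Of the 4070 called genes (2067 higher, 2003 lower, 589 with opposite genotype effects, 507 with opposite LPS responses), 1375 (947, 428, 292 and 257) had a log2 size of at least 1. DESeq2 called 2457 (1221, 1236, 298 and 246). A biological coefficient of variation of 0.1 for every gene, chosen after seeing the data, left 2161 (1287, 874, 207 and 217), and one of 0.4 left 72 (61, 11, 9 and 3). Leaving out 1 library at a time gave 3328 to 4199 genes, 1716 to 2088 higher, 1575 to 2111 lower, 397 to 659 with opposite genotype effects and 399 to 555 with opposite LPS responses. The other scalings, filters and voom gave 3711 to 4165 genes. Upper quartile scaling gave 1879 higher and 2286 lower. The same replicate numbers in different groups did not deviate together (correlations of -0.0184 to 0.0327), so they do not pair the samples, and a replicate block called 3884 genes. Genotype effects fitted in each table on its own gave 625 opposite genes. As differences in CPM, 3941 called genes kept their direction and 129 did not. The value of Ptprc, 0.01 and not called, was -0.0337 with upper quartile scaling and -0.0718 to 0.0923 with 1 library left out, below 0 without LPS-stimulated WT replicate 2, unstimulated 3xGrk-/- replicate 1 or LPS-stimulated 3xGrk-/- replicate 2. Of the named genes, 22 lost their call in at least 1 setting other than the fixed coefficients of variation, among them Grk5, Grk6, Oas3, H2-Eb2, Atp6v1f, Atp6v0e and Gm42418. The cause of these changes was not tested. The list medians for cytokine, chemokine, NF-kB feedback, DC identity, NRF2 and cAMP genes and for eosinophil, mast cell and basophil, lymphocyte and stromal markers changed sign in at least 1 setting. With 2 libraries per group the spread is known poorly.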

Other observations

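Gene families were counted by symbol after their values had been seen, so their counts are a description without a test. Of 11 tested Toll-like receptor genes, 8 had a higher and none a lower interaction, beside 16.5% higher among all genes. Tlr3, which senses double-stranded RNA, had an interaction of 3.88, and Tlr4, the LPS receptor, -0.16 without a call. Of 17 genes with the symbol stem Ifi, 15 were higher and 1 lower. Of 11 guanylate-binding protein genes 7 were higher and none lower, with reads that close copies may share. Both counts include members of the lists above, such as Ifi44, Gbp2, Gbp3 and Gbp5. Of 6 coronin genes, which act on actin, 5 were lower and none higher, and of 7 genes of the chaperonin CCT 4 were lower and none higher, beside 16% lower among all genes.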
